A study of Mus musculus with 3 samples.

Results

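The genes described here are 33 transcriptional targets of the tumour suppressor p53, chosen by symbol from a list and measured by 38 probes among the 39429 probes of an Agilent mouse array. Every gene was present on the array, and 31 of the 33 passed the filter on dim probes, within 19434 genes tested in all. Eda2r, a receptor of the TNF receptor family, and Rrm2b, a ribonucleotide reductase subunit, did not pass it. RNA came from 3 primary diffuse-type gastric cancers, each from a mouse aged 12 months with the Atp4b-Cre+ transgene on a Cdh1loxP/loxP and Trp53loxP/loxP background, with 1 tumour hybridised in red (Cy5) per array. The green channel (Cy3) always held 1 common pool of normal stomach mucosae, taken from 5 mice of equal age that carried both floxed genes but were Atp4b-Cre-, with the stroma removed mechanically in 30 mM EDTA. Both sides of the comparison therefore carried the floxed alleles, and the recombinase was the labelled difference in genotype. The Atp4b promoter, that of the proton pump beta subunit, is active in parietal cells, so stromal and immune cells within a tumour were not targeted by the deletion. The pool is 1 sample, and the spread among normal mice was not measured. All arrays had the same dye orientation and lay on 1 slide.

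p53 is a transcription factor that is stabilised by DNA damage, oncogene activity and other stress. It switches on genes that hold the cell cycle, repair DNA, dampen growth signalling or start apoptosis, and several of its targets, such as Ppm1d, feed back to turn the response off. Most of these genes also have a basal level set by other transcription factors. In the stomach, loss of p53 is frequent in gastric cancer.

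Of the 31 tested targets, 2 were called higher in the tumours and 2 lower. Calling required an adjusted p below 0.05 in limma's moderated test of the log2 ratio (tumour over pool) against 0, and a difference of 2-fold or more. Phlda3, a repressor of AKT signalling, rose 5.14-fold, and the TRAIL receptor gene Tnfrsf10b rose 2.46-fold. Ccng1, the cyclin G1 gene, fell to a log2 ratio of -1.05, and Perp, a membrane protein of apoptosis and of desmosomes, fell to -1.16. The share called was 6.45% in each direction, against 9.33% of all genes tested called higher and 9.68% called lower. Over both directions it was 12.9% of the targets against 19% of all genes. Without replicate 1 or replicate 3, 0 targets were called lower. The median log2 ratio of the 31 targets was 0.52, with array medians of 0.41, 0.50 and 0.42 on replicates 1, 2 and 3, and the median over all genes tested was 0.047.

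Differences under 2-fold were more common. With the adjusted p alone, 16 targets were higher and 3 lower, which is 51.6% and 9.68% of those tested. The same rule took 24.5% of all genes as higher and 22.9% as lower. The log2 ratio was above 0 on all 3 arrays for 18 targets (58.1%, against 40.7% of all genes) and below 0 on all 3 for 4 (12.9%, against 34.3%). The remaining 9 had both signs. The members were chosen with earlier results of these data known, so these shares carry no test.

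**Figure D1:**
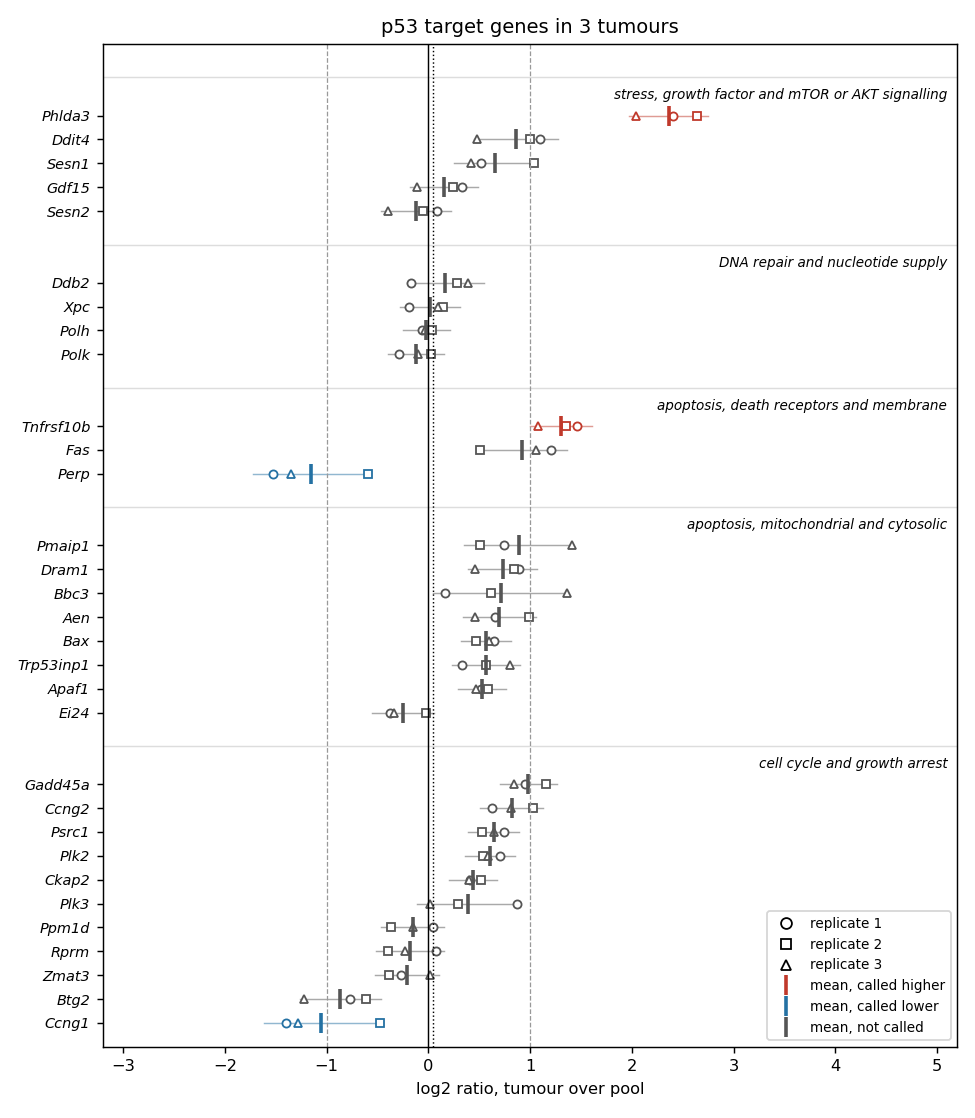
Log2 ratio of tumour over pool (horizontal axis) for the 31 tested p53 target genes, grouped by role; open symbols are the 3 arrays, thick ticks the means and thin lines the 95% intervals of the fit. Phlda3 lies furthest to the right at 2.36, Perp and Ccng1 furthest to the left at -1.16 and -1.05, and the 4 DNA repair genes lie around 0; the dotted line is the median of all genes tested and dashed lines mark 2-fold.

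These sizes and directions depended on scaling. Loess, used for all values unless stated, removes an array's overall colour difference, which left 49.1% of all called genes on the higher side. Median centring, in which each array is shifted to put its middle gene spot at 0, instead moved the median of all genes tested by 0.72 to 0.77, with 93.3% of called genes higher. There 16 targets were called higher and 0 lower, against 39.9% and 2.86% of all genes, and the median of the targets stood at 1.06. Centring on spike-in RNA left the median of all genes at 0.0017, with 59.2% of calls higher. There 7 targets were called higher and 1 lower, against 16.2% and 11.2% of all genes, and the targets' median stood at 0.30. The targets' array medians had an SD of 0.40 with spike-in centring, against 0.15 with median centring and 0.051 with loess. The distance of the targets' median from that of all genes was 0.48 with loess. It was 0.29 under both of these centrings. These must give the same distance, because each shifts all genes of an array by the same amount. Offset 0 called 7 targets higher and 2 lower, against 16.4% and 13.1% of all genes. Agilent's processed signals called 9 and 2, against 19.2% and 15.8%, and the authors' deposited values 6 and 2 of 25 targets, against 12.1% and 17.4%. The authors' values nearly repeat the ratios of the processed signals, so they are not a separate check. With 1 tumour left out in turn, 2 to 4 targets were higher and 0 to 2 lower. The matching shares of all genes were 8.67% and 9.88% without replicate 1, 8.53% and 9.14% without replicate 2, and 8.56% and 9.33% without replicate 3. A second form of spike-in centring, on the median of spike-in spots, called 6 targets higher and 1 lower, against 14.4% and 14% of all genes. Phlda3 and Tnfrsf10b were called higher under every alternative run. Ccng1 and Perp were not called lower with either centring, and with median centring their ratios were 0.076 and 0.35.

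Some dim targets moved widely between settings. Dram1 stood at 0.73 with the offset of 50, 2.29 with Agilent's processed signals and 0.17 with spike-in centring. For Psrc1 these values were 0.64, 1.85 and 0.13, for Ckap2 0.44, 1.52 and 0.08, for Apaf1 0.52, 1.38 and 0.30, and for Ccng2 0.82, 1.53 and 0.74. All 5 were called higher with the processed signals and none of them with loess and the offset of 50 or with spike-in centring.

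**Figure D2:**
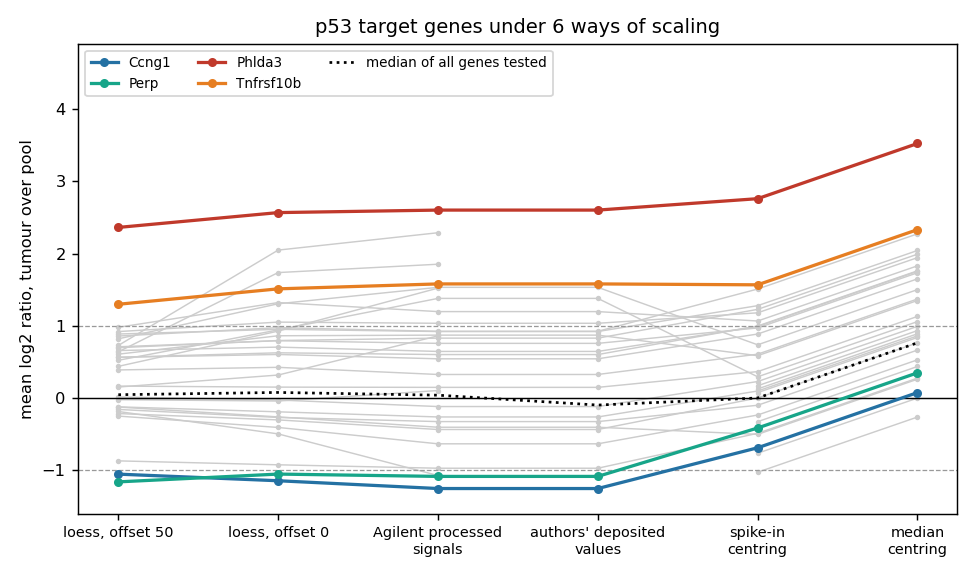
Mean log2 ratio (vertical axis) of each p53 target under 6 ways of scaling (horizontal axis), with the called genes in colour, the other targets in grey and the median of all genes as a dotted line. Phlda3 runs from 2.36 to 3.52 and Tnfrsf10b from 1.30 to 2.33, while Ccng1 and Perp cross 0 under median centring. The authors' deposited values nearly repeat the ratios of Agilent's processed signals.

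Short promoter sequences show which of these genes carry a p53 consensus decamer next to their start site. RefSeq promoter windows of GRCm38.p6 (250 bases before to 50 after a start) were found for 25 of the 33 genes, 32 windows in all. Perp, Tnfrsf10b, Pmaip1, Zmat3, Xpc, Ddb2, Trp53inp1 and Rrm2b had no entry. The decamer, which reads the same on both strands, was present in 9 of the 25 genes (36%), against 9.55% of 27025 genes in the whole table. By window, the share was 31.2% of the targets' windows and 8.36% of all 32851 windows. The Aen decamer lies in overlapping windows and is counted in each. A match is a description of letters and not a bound site, and many known p53 sites lie in introns outside such windows. The 5 target sequences below, with that of Cdkn1a (the p21 gene, the best known p53 target) for comparison, are shown because their genes had different ratios; capitals mark the decamer and each line reads 5′ to 3′ on the gene's strand.

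Ccng1, chr11:40755452-40755481, minus strand: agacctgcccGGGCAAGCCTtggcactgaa
Gadd45a, chr6:67037428-67037457, minus strand: ggttggctgaGGGCTAGCCCcatatctccg
Aen, chr7:78895927-78895956, plus strand: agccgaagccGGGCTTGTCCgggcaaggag
Bax, chr7:45467080-45467109, minus strand: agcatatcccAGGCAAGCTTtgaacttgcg
Ei24, chr9:36797335-36797354, minus strand: cgtgcggcccGGGCATGCCC
Cdkn1a, chr17:29090918-29090947, plus strand: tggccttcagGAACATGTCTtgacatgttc

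Between the decamer and the annotated start lay 175 bases in Ccng1, 30 in Gadd45a, 111 in Aen, 191 in Bax and 0 in Ei24. For Aen this is the distance to the later annotated start, and the same decamer lies just after the earlier one. The Ccng1 window was the only one of the 32 in which 2 decamers, each with at most 1 mismatch, lay within 13 bases of each other. Such a pair was found in 2.71% of all windows. The decamer was also found before Ckap2, Polk, Ppm1d and Sesn1. The 9 genes with it had log2 ratios from -1.05 for Ccng1 to 0.98 for Gadd45a, with a median of 0.44. The 15 tested genes with a window and no decamer ran from -0.87 for Btg2 to 2.36 for Phlda3, with a median of 0.61. The ranges overlapped, and both held genes above and below 0.

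The targets grouped under cell cycle and growth arrest also included spindle genes and Ppm1d, which ends the p53 response. Of these 11 targets, 1 was called, and it was lower. That is 9.09% called lower and 0% higher, near the 9.68% of all genes called lower. Ccng1, a long-known p53 target in mouse tissues, had log2 signals of 8.71, 9.79 and 8.95 in the tumours of replicates 1, 2 and 3, and of 10.11, 10.27 and 10.23 in the pool on the same arrays. All tumour signals lay below all pool signals, and the tumour of replicate 2 lay nearest to the pool. The log2 ratios were -1.40, -0.48 and -1.28, a mean of -1.05 ± 0.50 (SD, n = 3; limma adjusted p = 0.0184) at a probe on chromosome 11, 40562427 to 40562486 of mm9. Without replicate 1 its ratio was -0.88 (limma adjusted p = 0.0589) and without replicate 3 it was -0.94 (limma adjusted p = 0.0946). Without replicate 2 it was called, at -1.34 (limma adjusted p = 0.0107), so the call rested on replicates 1 and 3.

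Btg2, an antiproliferative gene, had ratios of -0.78, -0.61 and -1.22 and a mean of -0.87 ± 0.32 (limma adjusted p = 0.012), lower on every array but less than 2-fold. Gadd45a, a growth arrest and DNA damage gene, had ratios of 0.94, 1.15 and 0.84. Its mean of 0.98 ± 0.16 (limma adjusted p = 0.00364) lay just under the 2-fold limit. Gadd45a was called with Agilent's processed signals (1.20), offset 0 (1.32), spike-in centring (1.07) and median centring (1.83). It was also called without replicate 3 (1.05), but not without replicate 1 (0.997) or replicate 2 (0.89). Ccng2, a growth-inhibitory cyclin that FoxO factors also induce, had a mean of 0.82 ± 0.20, opposite in sign to its relative Ccng1. The polo-like kinase gene Plk2 had 0.61 ± 0.09, and the spindle genes Psrc1 and Ckap2 had 0.64 ± 0.11 and 0.44 ± 0.06 (SD, n = 3 throughout). These 4 passed the adjusted p without reaching 2-fold. For Psrc1 the pool signal was not well above background on any array, so the size of its difference is uncertain and no fold is given. Plk3, Ppm1d (a phosphatase that ends the p53 response), Rprm and the RNA-binding gene Zmat3 did not pass. Their means ran from -0.21 for Zmat3 to 0.39 for Plk3, and the values of Plk3 ranged from 0.012 to 0.87 between tumours.

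A broad group of 8 tested targets was read under apoptosis inside the cell, with genes of mitochondria, cytosol, nucleus, endoplasmic reticulum and lysosome. Of these, 0 were called, against 19% of all genes. By limma's adjusted p alone 6 were higher and 0 lower, against 24.5% and 22.9% of all genes. Bax, which opens the outer mitochondrial membrane, had log2 signals of 10.93, 10.71 and 10.99 in the tumours against 10.29, 10.24 and 10.40 in the pool. The groups did not overlap, and the log2 ratio was 0.57 ± 0.09 (SD, n = 3; 95% interval 0.32 to 0.81). Pmaip1, the NOXA gene, had tumour signals of 10.37, 10.05 and 11.05 against 9.63, 9.55 and 9.64 in the pool. The tumour of replicate 3 was highest, and the ratios were 0.75, 0.50 and 1.41, a mean of 0.89 ± 0.47 (limma adjusted p = 0.0253). Pmaip1 was called with spike-in centring (1.28), median centring (2.04) and without replicate 2 (1.08). It was not called with offset 0 (0.95) or Agilent's processed signals (0.92).

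Bbc3, the PUMA gene, had the largest SD of the log2 ratio among the 31 targets. Its ratios were 0.16, 0.61 and 1.36 on replicates 1, 2 and 3, with an SD of 0.60. The mean of 0.71 did not pass (limma adjusted p = 0.0766), with a 95% interval of 0.045 to 1.38. Bbc3 and Pmaip1 were both highest in the tumour of replicate 3. Apaf1, the core of the apoptosome, had 0.52 ± 0.06, and the nuclease gene Aen had 0.70 ± 0.27 at one probe and 0.73 ± 0.32 at a second, overlapping one. Aen was called with spike-in centring (1.23) and median centring (1.99), but not with offset 0 (0.80) or Agilent's processed signals (0.83). Trp53inp1, a nuclear stress protein gene, had 0.56 ± 0.23 at its brighter probe and 0.20 ± 0.19 at the other, which did not pass. The lysosomal autophagy gene Dram1 had 0.73 ± 0.24, and since the pool was not well above background on any array no fold is given. Ei24, an endoplasmic reticulum protein gene, had -0.25 ± 0.19 and did not pass.

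**Figure D3:**
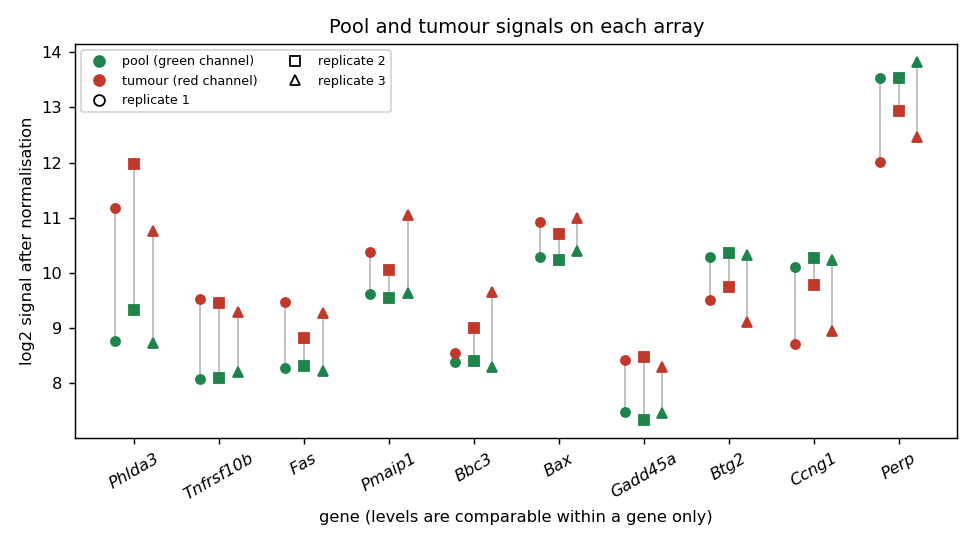
Log2 signals after loess and scaling between arrays (vertical axis) in the pool (green) and the tumour (red) on each of the 3 arrays, joined by a line, for 10 p53 targets; levels are comparable within a gene only. Tumour signals of Phlda3 lie at 10.77 to 11.97 above pool signals of 8.72 to 9.33, those of Perp at 12.00 to 12.93 below 13.53 to 13.82, and the tumour signals of Bbc3 spread from 8.54 to 9.66.

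Targets that act at the cell surface split. The TRAIL receptor gene Tnfrsf10b had log2 signals of 9.54, 9.45 and 9.29 in the tumours and 8.07, 8.10 and 8.21 in the pool. All tumours lay above the pool by similar amounts. Its log2 ratio was 1.30 ± 0.20 (SD, n = 3; limma adjusted p = 0.00232) at a probe on chromosome 14, 70184141 to 70184200 of mm9. Fas, the receptor of Fas ligand, had ratios of 1.20, 0.51 and 1.05. Its mean of 0.92 ± 0.37 (limma adjusted p = 0.0137) stayed under 2-fold with all tumours and the settings used unless stated. Fas was called without replicate 2, the tumour with the lowest ratio, but not without replicate 1 (0.78) or replicate 3 (0.85). With all tumours it was called with offset 0 (1.05) and Agilent's processed signals (1.04). The authors' deposited values, which nearly repeat the processed signals, also gave 1.04. It was also called with spike-in centring (1.18) and median centring (1.94).

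Perp had tumour signals of 12.00, 12.93 and 12.47 and pool signals of 13.53, 13.53 and 13.82. All tumours lay below the pool. The ratios were -1.53, -0.59 and -1.35, a mean of -1.16 ± 0.50 (SD, n = 3; limma adjusted p = 0.014) at a probe on chromosome 10, 18576697 to 18576756 of mm9. As for Ccng1, the tumour of replicate 2 lay nearest to the pool, and the call was lost without replicate 1 (-0.97) and without replicate 3 (-1.06; limma adjusted p = 0.0784). Perp is also an epithelial gene, and 6 epithelial markers were read beside it. Their mean ratios were 0.47, 1.15 and 0.65 on replicates 1, 2 and 3. Krt8, Krt19 and Epcam were picked from them after their values were seen. The simple keratin gene Krt8 had -1.91, -0.65 and -2.12, and Krt19 had -2.17, -0.74 and -0.91, whereas Epcam was called higher at 1.20 ± 0.22. Of 6 epithelial markers 3 were called higher (50%, against 9.33% of all genes) and 2 lower (33.3%, against 9.68%). Their median log2 ratio was 0.54. Their summed signals, in which the brightest probes weigh most, were 128530 to 223504 in the tumours and 228986 to 305467 in the pool. The part of epithelial content in the Perp ratio was not tested. Both probes of Eda2r were not well above background in either channel on any array, with log2 signals of 5.86 to 6.04, so no difference can be given for it.

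Of 4 DNA repair genes tested, 0 were called, against 19% of all genes, and by limma's adjusted p alone likewise 0, against 47.4% of all genes. Each had both signs among the 3 tumours. Ddb2 was called higher with median centring, at 1.13 (limma adjusted p = 0.00616). Xpc, a damage sensor of nucleotide excision repair, had 0.016 ± 0.18 (SD, n = 3) with a 95% interval of -0.28 to 0.31. Its partner Ddb2 had 0.17 ± 0.30, with an interval of -0.21 to 0.55. The translesion polymerase genes Polh and Polk had -0.022 ± 0.05 and -0.12 ± 0.16, and a second Polk probe had 0.03 ± 0.11. These intervals leave out 2-fold differences for all 4 genes with loess. Both Polk probes and that of Polh were dim, which limits the difference they can show. At its brighter probe Rrm2b was well above background on 2 arrays in the pool and 1 in the tumours, with ratios of -0.35, -0.39 and -0.31. It was tested only without the filter on dim probes, where its mean of -0.35 passed the adjusted p (limma, 0.0191) and stayed under 2-fold.

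Stress and growth signalling targets held the largest difference. Phlda3, which competes with AKT for membrane lipids, had log2 signals of 11.17, 11.97 and 10.77 in the tumours and 8.77, 9.33 and 8.72 in the pool. The lowest tumour lay well above the highest pool value. Its ratios were 2.40, 2.64 and 2.04, a mean of 2.36 ± 0.30 (SD, n = 3; limma adjusted p = 0.00108; chromosome 1, 137665642 to 137665701 of mm9). This placed it at percentile 98.4 of all genes tested. It ran from 2.22 to 2.52 with each tumour left out in turn, and to 3.52 with median centring.

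Ddit4, an mTOR inhibitor gene also induced by hypoxia, had 0.86 ± 0.33, and Sesn1, which restrains mTOR in low amino acids, had 0.66 ± 0.33. Both passed limma's adjusted p (0.0135 and 0.0272) and stayed under 2-fold. Both were called with median centring (2.27 and 1.75). Ddit4 was also called with spike-in centring (1.51) and without replicate 3 (1.05). It was not called with offset 0 (0.97) or Agilent's processed signals (0.92). Sesn2, a relative of Sesn1, had -0.12 ± 0.25 with both signs between tumours and did not pass. Gdf15, a secreted stress cytokine of the TGF-beta family, had ratios of 0.33, 0.24 and -0.11 and did not pass either. Its pool signal was well above background on 2 of 3 arrays, and with Agilent's processed signals its mean was 0.86.

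Spread between tumours was a little wider for these genes than in general. The median SD of the log2 ratio was 0.23 over the 31 targets and 0.19 over all genes tested, and the targets' SDs ran from 0.05 for Polh to 0.60 for Bbc3. The tumour of replicate 3 had the highest ratio for 5 of the 31 targets and the lowest for 13. The tumour of replicate 2 had the highest for 14 and the lowest for 8.

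p53 itself and its regulators were read from a separate list. The Trp53 probe had log2 ratios of -0.12, -0.12 and -0.38, and did not pass at -0.21 ± 0.15 (SD, n = 3; limma adjusted p = 0.16). With spike-in centring it was -0.91 (limma adjusted p = 0.0133) and with the median of spike-in spots -0.999 (limma adjusted p = 0.00785), past the p threshold and just under 2-fold. The dim targets Polh and Rprm also stood lower with spike-in centring than with loess, at -0.76 against -0.022 and at -1.03 against -0.19. The Trp53 probe is dim in both channels, at 6.41 in the tumours and 6.62 in the pool. Its place relative to the loxP-flanked part is not stated in these sources, and it therefore does not check the deletion. Of 19 tested family members and regulators, 1 was called higher (5.26%, against 9.33% of all genes) and 2 lower (10.5%, against 9.68%). Their median was 0.093. Cdkn2a, whose locus encodes the CDK inhibitor p16 and the Mdm2 antagonist p19ARF, rose to 5.69 ± 0.34, with tumour signals near 13.12 against 7.43 in the pool (limma adjusted p = 0.000361). A second Cdkn2a probe gave 1.99 ± 0.25 and was called too. Hipk2, a kinase that phosphorylates p53, fell to -1.53 ± 0.23 and Trp73, the p53 relative, to -1.43 ± 0.15. Neither was called with median centring, at -0.42 and -0.82. Mdm2, the ubiquitin ligase that degrades p53 and is its transcriptional target, had 0.61, 0.67 and 0.27, a mean of 0.52 ± 0.21 (limma adjusted p = 0.0258), and was not called.

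Further p53 targets outside the 33 moved both ways. Of 23 tested, which include Trp73 and Mdm2, 6 were called higher (26.1%, against 9.33% of all genes) and 5 lower (21.7%, against 9.68%). Their median was 0.063. Cdkn1a, which encodes the CDK inhibitor p21, had ratios of -1.65, -1.45 and -3.23, a mean of -2.11 ± 0.98 (SD, n = 3; limma adjusted p = 0.0144). All tumours were below the pool, and replicate 3 was lowest. A second probe, for another Cdkn1a transcript, was not well above background in the pool on any array and had 0.14 ± 0.08. With the median of both probes (-0.99) or median centring (-0.91) Cdkn1a was not called. Cd82, a metastasis suppressor tetraspanin gene, fell to -1.42 ± 0.47 with loess, but stood at 0.20 with median centring and was not called there or with spike-in centring (-0.57). Among those that rose were Thbs1, which encodes the secreted matrix protein thrombospondin, at 3.91 ± 0.07, and Igfbp3, which encodes a secreted binding protein of insulin-like growth factors, at 2.04 ± 0.85. Igfbp3 lost its call without replicate 2 (1.90; limma adjusted p = 0.0502).

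Cell cycle genes that p53 represses through p21 were higher. Of 18 tested, 12 were called higher (66.7%, against 9.33% of all genes) and 0 lower (against 9.68%), with a median of 1.18. All 18 were higher by limma's adjusted p alone, against 24.5% of all genes. The replication helicase gene Mcm5 (1.68 ± 0.30) and the mitotic kinase genes Plk1 (1.66 ± 0.15) and Aurka (1.53 ± 0.26) led them. Because Gadd45a, Ddit4 and Sesn2 also answer to the stress factors ATF4 and CHOP, genes of that response were read as well. Of 16 tested, which include Ddit4 and Sesn2 themselves, 5 were called higher (31.2%, against 9.33% of all genes) and 3 lower (18.8%, against 9.68%). Their median was 0.022. Cebpb (1.96 ± 0.65), the serine synthesis genes Psat1 (1.54 ± 0.47) and Phgdh (1.41 ± 0.29) were the highest, and Nupr1 (-3.57 ± 0.69), Asns (-2.04 ± 0.42) and Vldlr (-1.40 ± 0.28) the lowest. Psat1 was not called with the median of its probes (1.00), nor Asns (-0.49) and Vldlr (-0.26) with median centring. Ddit3, the CHOP gene itself, had -0.25 ± 0.36.

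**Figure D4:**
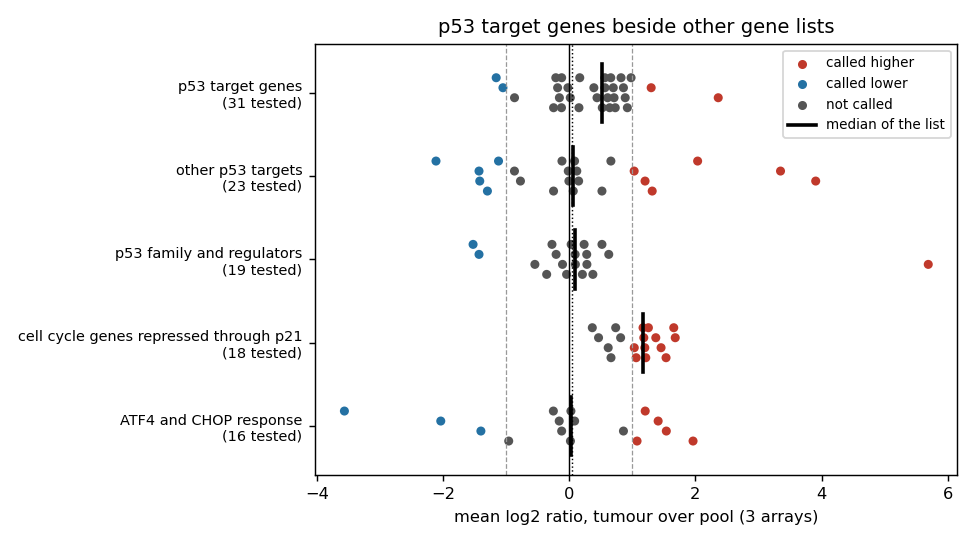
Mean log2 ratio over 3 arrays (horizontal axis) of each gene in the p53 target list and in 4 other lists, coloured by call, with black bars at list medians and the dotted line at the median of all genes. The 33-gene list lies mostly between the dashed 2-fold lines with a median of 0.52, whereas 12 of 18 cell cycle genes repressed through p21 lie beyond 2-fold.

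The tissues compared differed in their cells. In bulk RNA, a change in the number of cells of a type and a change in RNA per cell cannot be told apart. Of 9 parietal cell markers 8 were called lower, as were 5 of 5 chief cell and 7 of 7 mucous cell markers. Of all genes, 9.68% were called lower. Summed signals of the parietal list were 4942 to 8683 in the tumours and 392998 to 414721 in the pool. In all such sums the brightest probes weigh most. The defining parietal genes Atp4a and Atp4b remained well above background in every tumour. Called higher were 7 of 8 fibroblast, 7 of 8 macrophage and 5 of 7 neutrophil markers. So were 5 of 6 B and plasma cell, 3 of 7 T and NK cell and 3 of 6 endothelial markers. Of all genes, 9.33% were called higher. Summed macrophage signals were 24295 to 27781 in the tumours and 3997 to 4192 in the pool, and summed T and NK cell signals 2385 to 3330 and 2013 to 2106. Stroma removal from the pool and the tumours' own content cannot be told apart here. The part of these cells in the ratios of Phlda3, Tnfrsf10b and Fas was not tested.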

How the data were processed

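Mean spot signal and median local background intensity values were deposited by the authors, made with Agilent Feature Extraction (version 10.7.3.1 per the file headers, 9.5.3 per the submitters' processing notes). The deposited processed intensity signals and their log10 ratio are background-subtracted and dye-normalised, per the file headers. A second table of the authors gives log2 values, deposited without a stated scale: 99.8% of its filled probes per array lay within 0.01 of the scanner ratio, so direction and scale are those of the scanner and nothing was centred (medians -0.15, -0.13 and -0.11). Coordinates of probes are on mm9, as the file headers give it, and no exon was assigned to them.

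Per the labels, 250 ng of total RNA with an integrity number above 7 was labelled per sample. Of 43020 gene spots per array, 52.5 to 54.2% were well above background in green and 64.0 to 66.8% in red, with 0 saturated. Array number limits precision, not read depth.

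In limma 3.58.1 (R 4.3.3), normexp with offset 50, which pulls dim genes towards 0, was followed by loess in which control spots had no weight. Flagged outlier spots were dropped and repeated spots averaged per probe. A probe was kept (24164 were) if it stood well above background in 1 channel on all 3 arrays, and the brightest represents a gene. RefSeq accessions named 26055 probes. Mean ratios were tested against 0, two-sided, with lmFit, eBayes and Benjamini-Hochberg adjustment over 19434 genes (prior degrees of freedom 2.44). The test was tried on simulated data. Tumours are biological replicates per the labels. Levels given per channel are log2 signals after loess and Aquantile scaling.

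The 33 genes and the other lists were chosen with earlier results of these data known. All 33 are named, with values by array for those called. Of each other list, Trp53, Cdkn1a, Mdm2 and up to 3 called genes per direction are named, except 1 that is not reported here; Ddit3, Krt8, Krt19, Epcam and the second probes were picked after their values were seen. Alternatives covered the offset, Agilent's processed signals, the authors' values, centring, the dim-probe filter, the probe for a gene, the fold minimum and each tumour left out.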

Additional observations from a re-analysis of the deposited data

How the results depend on the processing

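Of 391 ratios of single targets under other settings, 336 kept their sign and side of the calling limit or were uncalled throughout. Another 45 became called, 8 lost a call and 2 called ones changed sign. Those 2 were Ccng1 (0.076) and Perp (0.35), both with median centring. For a target with a single probe, changing the dim-probe filter or taking the median of probes left the ratio itself unchanged. Centring on the tested genes shifted the median of all genes by only -0.041. The 336 therefore overstates how far the ratios were put to a test. Phlda3 and Tnfrsf10b kept their calls throughout. Targets called higher, 2 in the report, are given here with the share of all genes called higher in brackets (9.33% in the report). They numbered 7 with offset 0 (16.4%) and 9 with processed signals of the scanner (19.2%). The authors' deposited values, which nearly repeat the processed signals, called 6 of 25 (12.1%). Median centring called 16 (39.9%), spike-in centring 7 (16.2%) and no fold minimum 16 (24.5%). Targets called lower, 2 in the report (against 9.68% of all genes), numbered 0 with median centring (2.86%) and 1 with spike-in centring (11.2%). That 1 was Rprm, at -1.03, dim in the tumours. The targets' median, 0.52, was 0.63, 0.65, 0.60, 1.06 and 0.30 under the first 5 of these settings in that order, and 0.44 both with no filter on dim probes and when probes of a gene were combined by their median. Spike-in centring used the mean over 10 spike-in transcripts, a form settled after their ratios were seen. The median of all spike-in spots was added after seeing the data. It gave 6 targets higher and 1 lower, against 14.4% and 14% of all genes. The targets' median was 0.21 there, and 2795 genes were higher. With a tumour left out, 2 to 4 targets were higher and 0 to 2 lower, with medians of 0.46 to 0.53. The shares of all genes there were 8.53 to 8.67% higher and 9.14 to 9.88% lower. Genes called higher, 1814 in the report, numbered 3191 with offset 0, 3738 with Agilent's processed signals, 7747 with median centring, 3153 with spike-in centring and 4765 with no fold minimum. Genes called lower, 1882 in the report, numbered 3079, 556 and 4443 with Agilent's processed signals, median centring and no fold minimum. The cause of these shifts was not tested, apart from the fold minimum, which only adds genes. No paired analysis was possible because the labels give 1 group of tumours, each already set against the pool on its own array.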
